A study of Homo sapiens with 9 samples.

Results

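The 10 genes described here encode enzymes that break down tryptophan, IL4I1 to indole-3-pyruvate and the others along the kynurenine route. Both routes are sources of ligands for the aryl hydrocarbon receptor (AhR, gene AHR). The 10 genes are IDO1, TDO2, IL4I1, AFMID, KYAT1, KYAT3, KYNU, KMO, HAAO and QPRT. They were taken by gene symbol from a count table of 60649 genes, whatever their level. All 10 were found in the table, and 5 of them held enough reads to be tested. RNA sequencing covered 9 libraries of MDA-MB-231, a human cell line established from a triple-negative breast cancer, in 3 groups of 3 replicates. The control group carried the vector PLKO-GFP, and the others carried a short hairpin RNA against AHR, labelled shAHR#2 or shAHR#3. All cells grew in DMEM with serum, and the labels give the treatment of every group as proliferation and name no added AhR ligand. The hairpins were delivered by lentivirus. The labels number them differently from the paper's methods, so no target sequence is assigned to either, and they do not say whether replicates were separate cultures. The p-values therefore measure the spread between these libraries, which may be technical.

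Tryptophan is opened by the dioxygenases IDO1 and TDO2 to N-formylkynurenine, which the formamidase AFMID converts to kynurenine. Kynurenine can then be transaminated to kynurenic acid by the aminotransferases KYAT1 and KYAT3, cleaved by KYNU to anthranilic acid, or hydroxylated by KMO on the way to quinolinic acid and NAD through HAAO and QPRT. IL4I1 is a secreted amino acid oxidase that turns tryptophan into indole-3-pyruvate. Kynurenine, kynurenic acid and products of indole-3-pyruvate are known AhR ligands, and TDO2 is best known from liver and IDO1 from cells exposed to interferon gamma.

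Library totals ranged from 15991396 to 20374460 counted reads, and 14274 genes passed the filter on low counts and were tested together with edgeR's quasi-likelihood test. AHR itself stood at 118 ± 3.32 CPM (reads scaled to a common library size by TMM; SD, n = 3) with PLKO-GFP, and was at 35.3% ± 0.912 of that level with shAHR#2 and 40.5% ± 3.39 with shAHR#3. The AhR target CYP1B1 fell by 2.65 on the log2 scale with shAHR#2 and by 0.44 with shAHR#3. Not every AhR target fell so. TIPARP stood at 103% ± 4.46 of its control mean with shAHR#2 and at 88.4% ± 2.71 with shAHR#3 (SD, n = 3). All 6 genes listed as markers of the cell line were detected. Of 4 genes listed as low or absent in it, PGR had 0 reads, ESR1 0 to 4 and EPCAM 90 to 135. The fourth, the epithelial cadherin CDH1, had 14 to 20 reads in control libraries, 24 to 40 in shAHR#2 libraries and 72 to 94 in shAHR#3 libraries. A list of 5 leukocyte genes summed to 65 to 95 reads with PLKO-GFP, 45 to 81 with shAHR#2 and 89 to 115 with shAHR#3. Within it PTPRC had 1 to 4 reads in control libraries, 14 to 33 in shAHR#2 libraries and 14 to 30 in shAHR#3 libraries. CD14 and CSF1R were lower with shAHR#2, by log2 differences of -1.40 and -0.78, and were not called with shAHR#3 (-0.58 and 0.15), while CD3E was at 0. Hepatocyte markers summed to 0 or 1 read in each library. Whether leukocyte transcripts have a part in the results below was not tested.

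Depletion of AHR went with a higher level of KYNU and a lower level of KYAT3. TDO2 was also higher, but from 7 reads over the 3 control libraries, and it passed the filter on low counts only through the hairpin libraries, so its call in the counts that follow is not independent of its difference. Of the 10 members, 2 were called higher and 1 lower with each hairpin at an adjusted p under 0.05 (edgeR's quasi-likelihood test), 2 were not called, and 5 had too few reads to be tested. The same counts held for the mean of both hairpins. These counts stand against a wide background. Of all tested genes 65.8% were called with shAHR#2, of which the higher ones made 32.6% of tested genes and the lower ones 33.2%. With shAHR#3 54.4% were called, 26.9% as higher and 27.5% as lower. Averaging the hairpins gave 64.3%. Having 3 of 5 tested members called is near this background and is no result about the members as a set. The median absolute log2 fold change of all called genes was 0.45 with shAHR#2 and 0.35 with shAHR#3. Both hairpins were compared with the same 3 control libraries.

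**Figure D1:**
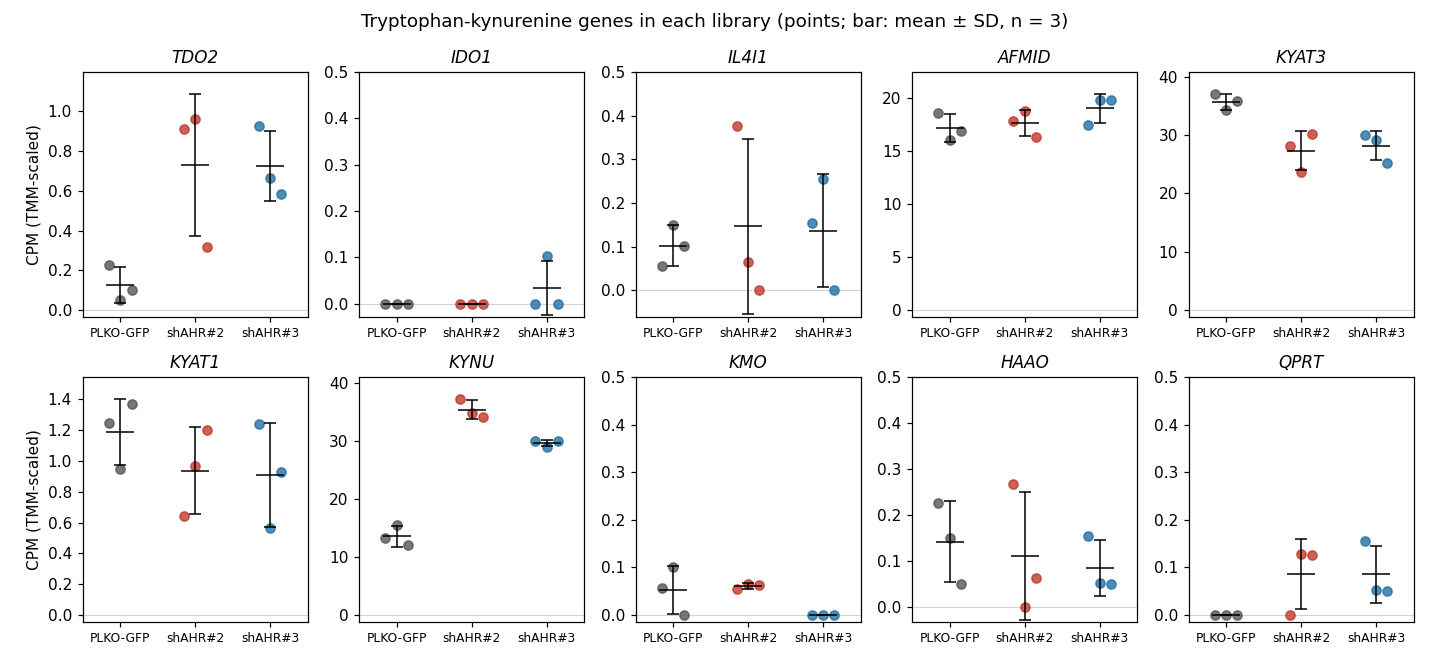
TMM-scaled CPM of each of the 10 genes (vertical axes, a scale of its own per gene) in the 9 libraries by group, with points for libraries and bars for the mean ± SD of 3 libraries. KYNU and TDO2 lie higher in all 6 hairpin libraries than in the 3 PLKO-GFP libraries, KYAT3 lies lower in all 6, and 5 genes stay near 0.

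The promoters of TDO2 and KYNU are shown because these genes rose with both hairpins. Sequences come from RefSeq (GRCh38.p14) and are the stretch before the RefSeq start that lies outside GENCODE exons, which for TDO2 is within the longer span that GENCODE gives the gene, and capitals mark CCAAT or its reverse complement ATTGG.
TDO2, chr4:155903446-155903692, plus strand: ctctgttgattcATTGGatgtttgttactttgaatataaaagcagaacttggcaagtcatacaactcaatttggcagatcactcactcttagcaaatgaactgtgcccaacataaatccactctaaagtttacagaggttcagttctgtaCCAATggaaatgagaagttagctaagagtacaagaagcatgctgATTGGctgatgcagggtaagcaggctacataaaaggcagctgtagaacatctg
KYNU, chr2:142877414-142877656, plus strand: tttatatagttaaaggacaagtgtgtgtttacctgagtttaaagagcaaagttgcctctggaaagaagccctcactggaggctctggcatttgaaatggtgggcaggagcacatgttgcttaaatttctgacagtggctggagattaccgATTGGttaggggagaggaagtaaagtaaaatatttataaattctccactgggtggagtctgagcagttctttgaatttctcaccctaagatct
The printed stretch of TDO2 holds this motif 3 times and that of KYNU holds it 1 time. Over the whole RefSeq window of 300 bases (250 before to 50 after the start), 5 of the 9 members with an entry hold it on either strand, against 34.6% of 35116 promoters. Besides TDO2 and KYNU these are KMO, with 2 matches, and KYAT3 and AFMID, with 1 each. KYAT3 was lower with both hairpins, so the motif is not particular to the members that rose. This motif was searched after the sequences had been read.

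The core bound by AhR with its partner ARNT, GCGTG (reverse complement CACGC), was searched on both strands of the same windows. It was found in 2 of the 9 members, AFMID and IL4I1, against 36.5% of all promoters. Capitals mark the core.
AFMID, chr17:78187335-78187364, plus strand: aacagagggacgCACGCccatgcggctgta
IL4I1, chr19:49929602-49929631, minus strand: caggcccagctgCACGCgggctgacaaaca
AFMID was not called with either hairpin, and IL4I1 had too few reads to be tested. A match is a run of letters and not a measured binding site, and its absence from the TDO2, KYNU and KYAT3 windows covers only these bases.

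TDO2 (ENSG00000151790.9, chromosome 4, 155854738 to 155920406, plus strand, GENCODE 44 on GRCh38), the dioxygenase of the first step, was scarce in every library. It had 4, 1 and 2 reads in PLKO-GFP replicates 1, 2 and 3. It had 17, 15 and 5 reads with shAHR#2 and 18, 13 and 12 with shAHR#3. The lowest hairpin library, shAHR#2 replicate 3, was above the highest control library by a single read, but the groups did not overlap. In CPM the control mean was 0.126 ± 0.090, against 0.730 ± 0.360 with shAHR#2 and 0.726 ± 0.178 with shAHR#3 (SD, n = 3). The log2 fold change was 2.53 with shAHR#2 (SE 0.59, 95% interval 1.34 to 3.73) and 2.50 with shAHR#3 (SE 0.58, 95% interval 1.34 to 3.67). From the summed reads alone, 37 against 7 gave a ratio of 6.07 (95% counting interval 2.67 to 16.1) and 43 against 7 gave 5.94 (2.65 to 15.6). The gene passed the filter only because of its hairpin libraries, so a difference was a condition of its being tested there. In the fit without that filter, which kept every gene with a read in any library, the estimates were 2.52 and 2.50 (edgeR adjusted p = 7.43e-05 and 8.31e-05). Without PLKO-GFP replicate 1, which held 4 of the 7 control reads, the estimates were 3.18 and 3.15.

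AFMID (ENSG00000183077.15, chromosome 17, 78187358 to 78207702, plus strand), which makes kynurenine itself, held 258 to 405 reads in each library. It had 328, 320 and 333 reads with PLKO-GFP, 331, 292 and 258 with shAHR#2, and 338, 387 and 405 with shAHR#3. Scaled by library, the means were 17.1 ± 1.29, 17.6 ± 1.22 and 19.0 ± 1.39 CPM (SD, n = 3), and the groups overlapped. The log2 difference from control was 0.04 with shAHR#2 (95% interval -0.13 to 0.22) and 0.15 with shAHR#3 (-0.01 to 0.32), and neither passed the test. Without shAHR#3 replicate 1 the latter was 0.22 and was called (edgeR adjusted p = 0.0387), and without PLKO-GFP replicate 2 the former turned to -0.0046.

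The aminotransferase KYAT3 (ENSG00000137944.18, chromosome 1, 88935773 to 88992953, minus strand), which makes kynurenic acid, had the most reads of the 10 in each PLKO-GFP library. It stood at 37.0, 34.3 and 35.9 CPM with PLKO-GFP. It stood at 28.0, 23.7 and 30.2 with shAHR#2 and at 30.0, 29.2 and 25.3 with shAHR#3. Every hairpin library lay below every control library, at 76.5% ± 9.25 of the control mean with shAHR#2 and 78.9% ± 7.11 with shAHR#3 (SD, n = 3). KYAT3 fell by 0.38 on the log2 scale with shAHR#2 (SE 0.07, edgeR adjusted p = 2.01e-05) and by 0.34 with shAHR#3 (SE 0.07, edgeR adjusted p = 9.82e-05). RBMXL1 shares 16.3% of the exon bases of KYAT3 on the same strand. It had 769 to 1009 reads and moved the other way, by 0.28 and 0.14 on the log2 scale. The part of shared reads in the KYAT3 result was not tested.

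KYAT1 (ENSG00000171097.14, chromosome 9, 128832942 to 128882494, minus strand), the other kynurenine aminotransferase of the list, held only 11 to 27 reads in each library. It had 22, 19 and 27 with PLKO-GFP, 12, 15 and 19 with shAHR#2, and 24, 11 and 19 with shAHR#3. The groups overlapped, and the log2 differences of -0.36 (95% interval -1.05 to 0.33) and -0.38 (-1.05 to 0.29) did not pass the test. The intervals are wide enough to hold the change seen in KYAT3. The same-strand gene ENSG00000286112 shares 57.3% of the exon bases of KYAT1 and had 2 to 12 reads, and how shared reads were assigned is not given in the sources used here.

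KYNU (ENSG00000115919.15, chromosome 2, 142877657 to 143055833, plus strand), kynureninase, showed the largest change among the 3 members with over 200 reads in every library. It had 235, 311 and 238 reads with PLKO-GFP, 696, 544 and 540 with shAHR#2, and 583, 567 and 615 with shAHR#3. In CPM these were 13.3, 15.5 and 12.1, then 37.3, 34.9 and 34.2, then 30.0, 29.0 and 30.0. No hairpin library came near the control range, and the groups with shAHR#2 and shAHR#3 did not overlap each other. The level was 260% ± 12.1 of the control mean with shAHR#2 and 218% ± 4.22 with shAHR#3 (SD, n = 3). The log2 fold change was 1.38 with shAHR#2 (SE 0.08, 95% interval 1.22 to 1.54, edgeR adjusted p = 3.81e-18). With shAHR#3 it was 1.12 (SE 0.08, 95% interval 0.96 to 1.28, edgeR adjusted p = 4.27e-15). Its overlap with another annotated gene is 0.699% of exon bases, with a pseudogene that had no read.

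**Figure D2:**
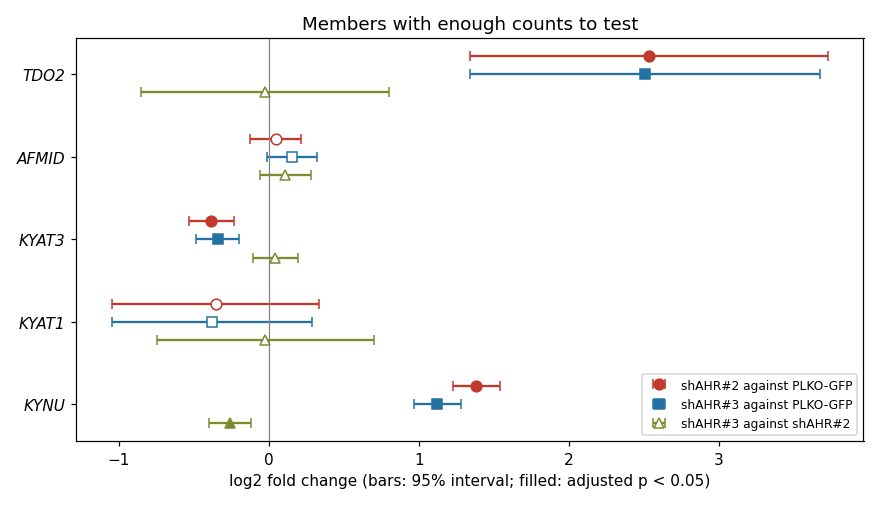
Log2 fold changes (horizontal axis) of the 5 tested members with 95% intervals, for each hairpin against PLKO-GFP and for shAHR#3 against shAHR#2, with filled symbols at an adjusted p under 0.05. KYNU lies at 1.38 and 1.12 with narrow intervals, TDO2 at 2.53 and 2.50 with wide ones, and KYAT3 at -0.38 and -0.34.

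KYNU and KYAT3, which can both use kynurenine, moved in opposite directions, and the ratio of their reads changed. The activity of the enzymes and their use of substrate were not measured. The ratio of KYNU to KYAT3 reads was 0.358, 0.453 and 0.336 with PLKO-GFP. It was 1.33, 1.47 and 1.13 with shAHR#2 and 0.998, 0.993 and 1.19 with shAHR#3. All 6 hairpin libraries were above all 3 controls, and the ratio needs no scaling between libraries. This separation follows from KYNU being higher and KYAT3 lower in all 6 hairpin libraries, and is no further evidence. Of all reads on the 10 members, KYNU held 18.2% to 23.1% with PLKO-GFP, 41.4% to 43.9% with shAHR#2 and 36.4% to 39.1% with shAHR#3. KYAT3 held 51.0% to 54.0% of them in control libraries, 29.8% to 36.6% in shAHR#2 libraries and 33.0% to 37.5% in shAHR#3 libraries. Together with AFMID these genes held 96.7% to 97.9% of the members' reads in every library. Shares depend on each other, so a rise of KYNU lowers the share of every other member. Against its own control mean, KYAT3 stood at 76.5% with shAHR#2 and 78.9% with shAHR#3.

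**Figure D3:**
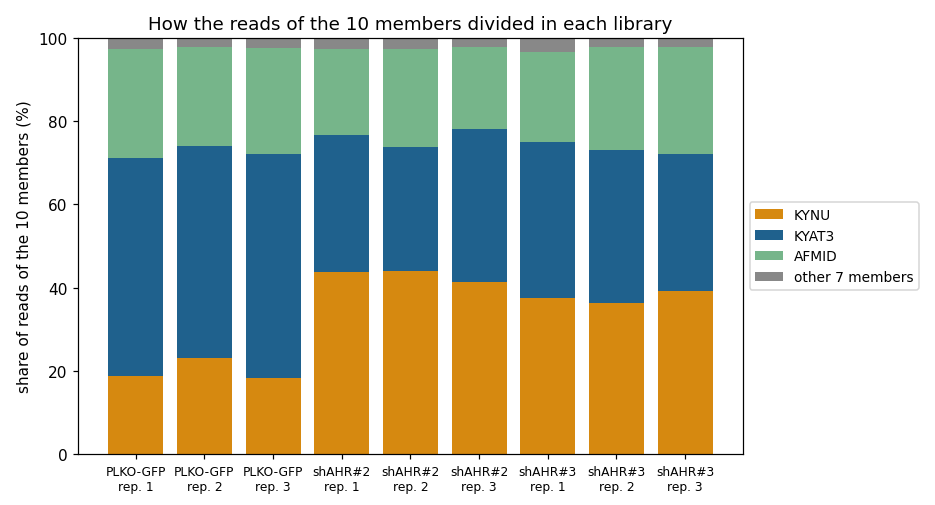
Share of the reads of the 10 members (vertical axis, percent) that fell on KYNU, KYAT3, AFMID and the other 7 in each of the 9 libraries. KYAT3 holds over 50% in each PLKO-GFP library, and KYNU is the largest part in each shAHR#2 library.

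Reads do not rank transcripts of unequal length. Per kilobase of all annotated exons, KYAT3 led in every group, at 16.3 ± 0.637 CPM per kb with PLKO-GFP, before AFMID at 4.27 ± 0.322, KYNU at 0.781 ± 0.101 and KYAT1 at 0.331 ± 0.060 (SD, n = 3). These neighbours were separated by more than their SDs. KYNU kept its place with shAHR#2 (2.03 ± 0.095) and shAHR#3 (1.70 ± 0.033). The order depends on the length used, since 17442 exon bases are annotated for KYNU while its coding sequence has 1395. Per kilobase of coding sequence KYNU went from 9.76 ± 1.27 with PLKO-GFP, the lowest of the 3 abundant members, to 25.4 ± 1.18 with shAHR#2. With shAHR#3 it was 21.3 ± 0.411, which differed from AFMID (20.9 ± 1.53) and KYAT3 (20.7 ± 1.86) by less than their SDs. The transcript that these cells use was not measured.

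The remaining 5 members had too few reads for a test. Of their 45 values 41 were at or under 3 reads, 19 were 0 and the highest was 7. IDO1 (ENSG00000131203.13, chromosome 8, 39902275 to 39928790), the dioxygenase induced by interferon gamma, had 0 reads in 8 libraries and 2 in shAHR#3 replicate 2. KMO (chromosome 1, 241532134 to 241595642), the hydroxylase of the quinolinic acid branch, had 0 to 2 reads. HAAO (chromosome 2, 42767089 to 42792593), which makes the precursor of quinolinic acid, had 0 to 5. QPRT (chromosome 16, 29663279 to 29698699), which converts quinolinic acid toward NAD, had 0 in the controls and at most 3 elsewhere. IL4I1 (chromosome 19, 49889654 to 49929539) had 1, 3 and 2 reads with PLKO-GFP, 7, 1 and 0 with shAHR#2, and 3, 5 and 0 with shAHR#3. Differences between the groups were therefore not tested for these genes. At this depth a floor of 3 reads corresponds to 0.146 to 0.193 CPM. Without molecular identifiers, that floor and the counting intervals above cover counting error alone. Some of these few reads may belong to overlapping genes, which was not tested. OPN3 shares 28.4% of the exon bases of KMO on the opposite strand, and its log2 fold changes were -0.98 and -0.47. NUP62 shares 13.5% of those of IL4I1 on the same strand and was not called with either hairpin. SPN shares 1.03% of those of QPRT on the same strand, and its log2 fold changes were 1.92 and 1.86.

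The hairpins were then compared directly, which asks whether the members responded alike to both. Only KYNU differed, lower with shAHR#3 by 0.26 on the log2 scale (-0.26, SE 0.07, 95% interval -0.40 to -0.12, edgeR adjusted p = 0.00221). Over all tested genes 42.3% differed between hairpins, 21.9% higher and 20.4% lower with shAHR#3. For KYAT3 the difference was 0.04 (95% interval -0.11 to 0.20) and for AFMID 0.11 (-0.06 to 0.28). For TDO2 it was -0.03, with an interval from -0.85 to 0.80 that leaves room for a sizeable difference either way, as does that of KYAT1 (-0.74 to 0.70).

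The genes whose pattern over the 9 libraries was most like that of KYNU were IGDCC4, SCARA3 and TRABD2A, among 11725 compared. Their root mean square difference from KYNU in centred log2 CPM was 0.091, 0.102 and 0.106. IGDCC4 rose by 1.36 and 1.16 with the hairpins. For TDO2 the nearest were B3GNT7, MEGF6 and NYNRIN, at 0.309, 0.378 and 0.415 among 11726, a looser likeness at its low counts. They rose by 2.32, 1.90 and 1.52 with shAHR#2 and by 1.82, 1.86 and 1.86 with shAHR#3, beside 2.53 and 2.50 for TDO2. All these genes were chosen by likeness over the same libraries, so their rise follows from the choice. The log2 CPM compared here include a prior count of 2, which shrinks differences at few reads. Genes matched to TDO2 in this way can therefore have smaller fold changes than TDO2.

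Other enzymes of the pathway gave 2 tested genes of 5, both lower with each hairpin, against 33.2% and 27.5% of all tested genes. Their median log2 fold change was -0.26 with shAHR#2 and -0.21 with shAHR#3, and that of all tested genes was close to 0 with each. AADAT, a further aminotransferase that makes kynurenic acid, fell by 0.38 with shAHR#2 and by 0.29 with shAHR#3 (edgeR adjusted p = 0.00193 and 0.0156). The latter call was lost without PLKO-GFP replicate 2 (-0.27, adjusted p = 0.0554) or shAHR#3 replicate 3 (-0.22, adjusted p = 0.0985). GOT2, mitochondrial aspartate aminotransferase, which also accepts kynurenine, fell by 0.13 with each. IDO2 had no read.

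Among 9 genes of NAD synthesis, 7 were tested, with 4 higher and 1 lower with shAHR#2 and 4 higher and 2 lower with shAHR#3, where 65.8% and 54.4% of all tested genes were called. The adenylyltransferase NMNAT2 rose by 0.71 and 0.79. NAPRT, which starts from nicotinic acid, rose by 0.52 and 0.44. NMNAT1 rose by 0.53 and 0.24, the latter not called without PLKO-GFP replicate 2 (adjusted p = 0.0611) or shAHR#3 replicate 1 (adjusted p = 0.0840). The genes did not move together. For shAHR#2 the lowest log2 fold change was -3.09, the median 0.49 and the highest 0.71. For shAHR#3 they were -0.70, 0.24 and 0.79, and for the mean of both hairpins the median was -0.0056.

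Of 8 transporters of tryptophan and kynurenine 5 were tested, with 2 higher and 2 lower with shAHR#2 and 1 higher and 3 lower with shAHR#3. The 4 called with each hairpin stand beside 65.8% and 54.4% of all tested genes, and the list's median log2 fold change was 0.0021 and -0.14. SLC7A5, the light chain of the main large neutral amino acid carrier, fell by 0.46 and 0.14, and its heavy chain SLC3A2 fell by 0.20 and 0.14. SLC7A6 rose by 0.20 and 0.29. Of 10 genes of other tryptophan use 5 were tested, with 2 higher and 2 lower with shAHR#2 and 2 higher and none lower with shAHR#3. These counts stand beside the same 65.8% and 54.4% of all tested genes, and the list's medians were 0.06 and 0.17. MAOB, a monoamine oxidase, had 3 to 5 reads in control libraries, 7 to 17 with shAHR#2 and 25 to 37 with shAHR#3. Like TDO2, it passed the filter only through hairpin libraries. Its log2 differences were 1.70 and 2.95, and 1.69 and 2.95 without the filter (edgeR adjusted p = 0.00360 and 7.90e-11). With the filter the former was not called without shAHR#2 replicate 1 (1.30, adjusted p = 0.0596).

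Along the interferon gamma route that induces IDO1, 5 of the 6 genes reported were tested, with 2 higher and 2 lower with shAHR#2 and 2 higher and none lower with shAHR#3, against the same 65.8% and 54.4%, and medians of 0.02 and 0.06. The receptor chain IFNGR1 rose by 0.38 and 0.55 and the kinase JAK2 by 0.43 and 0.53. The transcription factor IRF1 and the receptor chain IFNGR2 fell by 0.29 and 0.21 with shAHR#2 and were not called with shAHR#3 (0.06 and -0.07). IFNG itself had no read. Of 6 genes for AHR and its responders 5 were tested, with 3 lower with shAHR#2 and 4 with shAHR#3, and 1 higher with each. Of all tested genes 33.2% and 27.5% were called lower, and 32.6% and 26.9% higher. The lower genes include AHR itself, the target of the hairpins. The higher gene was ARNT, the partner of AhR, at 126% and 116% of its control mean. CYP1A1 fell by 2.47 and 1.23.

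**Figure D4:**
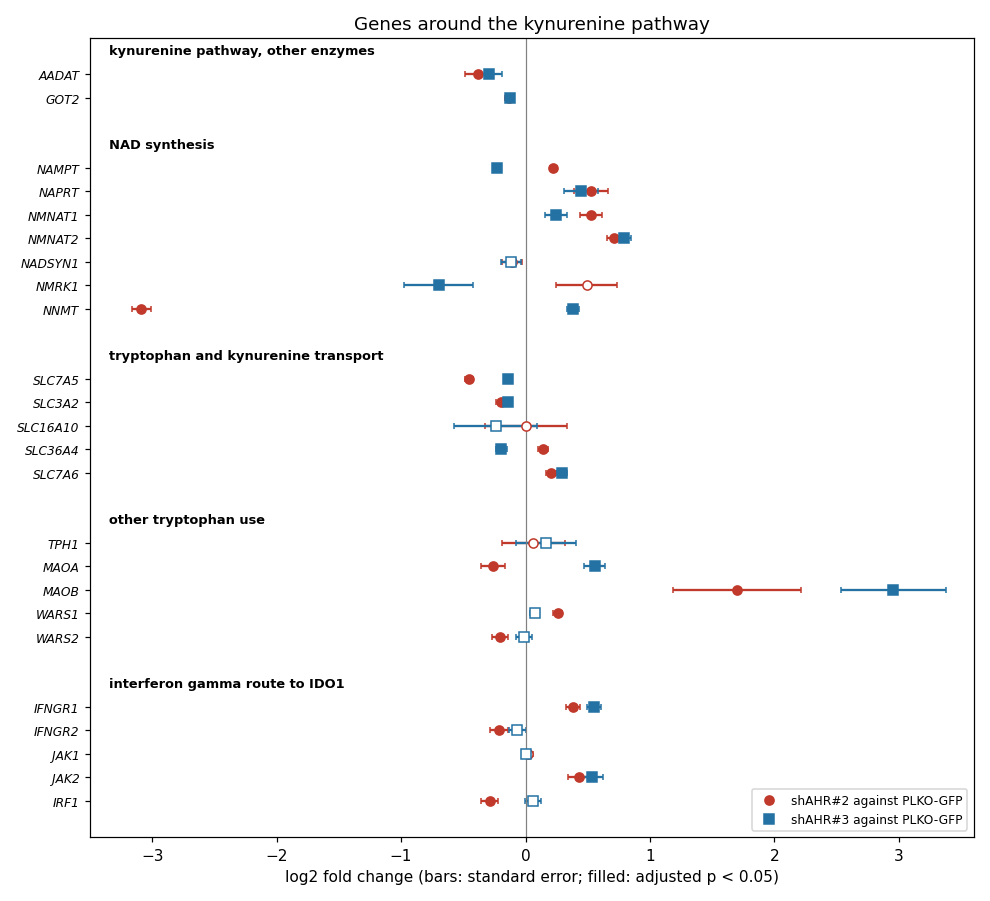
Log2 fold change (horizontal axis) with its standard error for the tested genes of 5 lists around the kynurenine pathway, for shAHR#2 and shAHR#3 against PLKO-GFP, with filled symbols at an adjusted p under 0.05. NNMT stands apart at -3.09 with shAHR#2 and 0.38 with shAHR#3.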

How the data were processed

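Per the labels and the paper's methods, the authors made stranded mRNA libraries from 500 ng of total RNA, sequenced them from a single end and aligned them to GRCh38.p13 with STAR. The submitters' processing notes also name FastQC, featureCounts and Subread. The authors deposited whole-number read counts per gene, without normalization. The annotation release and strand setting of the counting are not given in the sources used here.

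Counts were analysed with R 4.3.3 and edgeR 4.0.16. Genes were kept by filterByExpr (minimum count 10, minimum total 15), libraries were scaled by TMM, and the quasi-likelihood test used group as its single factor over all 9 libraries, without a block. P-values were adjusted by Benjamini-Hochberg over 14274 genes, with a threshold of 0.05. The standard error is the absolute log2 fold change over the square root of F. Depth was 15991396 to 20374460 reads per library, and the common biological coefficient of variation was 2.96%. Replicates differed by more than sampling noise, so none was counted as a copy.

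The members and the gene lists were chosen with earlier results of these data known. All 10 members are named. An item of the interferon gamma list is not reported here and is left out of its counts. From each other list, counts are given and up to 3 genes called in the same direction with both hairpins, by mean absolute log2 fold change. IRF1, IFNGR2, IFNG, IDO2, TIPARP, ARNT, NNMT and NAMPT are named outside that rule. Likeness was the root mean square difference of centred log2 CPM (prior count 2) over tested genes with a mean log2 CPM of at least 1. Alternatives were DESeq2 1.42.0, its size factors, no filter, a mean of at least 50 counts, only the groups compared, a replicate block, an adjusted p under 0.01 and leaving out each library. The fit was tested on simulated data. Positions are of GENCODE 44, in which 60463 of 60605 identifiers were found, and its release may differ from the authors'.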

Additional observations from a re-analysis of the deposited data

Results flagged for a closer look

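KYNU rose with both hairpins, but its log2 fold change was smaller with shAHR#3, by a tested difference of -0.26 between shAHR#3 and shAHR#2 (edgeR's quasi-likelihood test, adjusted p = 0.00221). Every shAHR#3 library (29.0 to 30.0 CPM) was below every shAHR#2 library (34.2 to 37.3 CPM). AHR was also higher with shAHR#3, by 0.19 on the log2 scale, a difference not called without shAHR#3 replicate 2 (0.13, edgeR adjusted p = 0.0604). Whether the remaining AHR has a part in the KYNU difference was not tested.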

How the results depend on the processing

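Over the 63 alternatives the number of members called was 2 to 3 with shAHR#2 and 2 to 4 with shAHR#3. It was 2 to 3 for the mean of both hairpins and 1 between hairpins. KYNU and KYAT3 kept their direction and call against PLKO-GFP in each alternative. TDO2 could not be fitted with a mean of at least 50 counts. In the other alternatives it was called, but except in the fit without a filter this rests on a filter that its hairpin libraries carried it past. Of 307 alternatives for single members, 296 kept direction and call. Whether the replicate numbers mark pairs of libraries was not settled. Same-number pairs correlated at -0.051 to 0.076 (0 of 9 over 0.1), but 6 of 9 libraries correlated best with their own number. With the replicate block 3 members were called with each hairpin and 1 between hairpins, while TDO2 turned from -0.03 to 0.014 between hairpins. Differences that changed sign were none of them called. With single libraries left out, AFMID with shAHR#2 ranged from -0.0046 to 0.10. Between the hairpins the ranges were -0.37 to 0.18 for TDO2 (sign changed at 0.17, 0.18, 0.029 and 0.11), -0.30 to 0.22 for KYAT1 (0.19 and 0.22), -0.054 to 0.12 for KYAT3 (-0.054 and -0.0038), -0.028 to 0.031 for GOT2 (-0.028 and -0.0074) and -0.15 to 0.029 for NAPRT (0.029). Depth limits the statements on TDO2, KYAT1 and the 5 members not tested.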

Other observations

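NNMT, which methylates nicotinamide and so draws on the pool that feeds NAD salvage, differed most between the hairpins among the NAD genes listed. It stood at 48.6, 48.2 and 49.3 CPM with PLKO-GFP, 5.20, 6.61 and 5.44 with shAHR#2, and 64.1, 62.2 and 64.1 with shAHR#3. The log2 difference between shAHR#3 and shAHR#2 was 3.47 (SE 0.07, edgeR adjusted p = 3.53e-30). NAMPT, the rate-limiting enzyme of NAD salvage, moved in opposite directions, by 0.22 with shAHR#2 and -0.23 with shAHR#3. Both genes were named after their values were seen.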
